A study of Mus musculus with 20 samples.

Results

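The mitochondrial ribosomal protein genes were the 78 genes of the deposited count table, of 54532 in all, whose symbol has the form Mrpl or Mrps followed by a number and, in some, a letter. Of these, 49 carry a large subunit symbol (Mrpl) and 29 a small subunit symbol (Mrps), and all 78 are annotated as protein-coding. RNA-seq was carried out on the condylar head of the mouse temporomandibular joint (TMJ), taken with part of the subchondral bone. All 20 mice carried Acan-CreERT2 and Loxl2 fl/fl alleles and were 6 months old at the first injection. The 8 Control mice received vehicle. The 12 LOXL2_KO mice received tamoxifen at 75 mg/kg on 5 consecutive days and then monthly, and tissue was collected after 4 months. The Cre is driven by the aggrecan promoter, so deletion of Loxl2 is directed to aggrecan-expressing cells, and the effects of tamoxifen and of deletion cannot be told apart because no mouse had one without the other.

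The mitochondrial ribosome makes the few proteins that the mitochondrial genome encodes, all of which are subunits of the respiratory chain complexes and ATP synthase. Its RNA comes from the mitochondrial genome, whereas its proteins come from nuclear genes and are imported. The small subunit binds and decodes the mRNA, and the large subunit joins amino acids and passes the growing chain to the inner membrane. Chondrocytes lean on glycolysis and skeletal muscle fibres are rich in mitochondria.

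Total counts ran from 11153820 to 27045668 per library. Loxl2 RNA, counted over the whole gene and the whole condylar head, did not fall in the group labelled knockout. Its level in CPM (counts scaled to a common library size with TMM factors, as everywhere below) was 16 at the lowest, 70.3 at the median and 103 at the highest in the Control libraries, and 28.8, 109.7 and 126 in the libraries labelled knockout. The fitted log2 fold change was 0.64 ± 0.28 (SE, 8 against 12 libraries, edgeR adjusted p = 0.101). An exact two-sided permutation test on log2 CPM gave a mean higher by 0.77 in the libraries labelled knockout (unadjusted p = 0.0271). This is against the direction of the label, and the group is called by its label here. The paper reports less LOXL2 protein in the knockout mice by immunohistochemistry of the joint. RNA of the whole condylar head does not measure protein or deletion in aggrecan-expressing cells alone. Of the chondrocyte, bone, muscle and blood marker lists, none had a gene at 0 in every library. Control replicates 6 and 8 stood apart, with summed osteoblast and osteocyte markers of 234 and 178 CPM against 823 to 1848 CPM in the other Control libraries. Control replicate 8 also had the lowest summed chondrocyte markers (101 CPM) and the highest summed skeletal muscle markers (194300 CPM).

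NRF1, GABP and YY1 are nuclear transcription factors known to bind promoters of mitochondrial genes. RefSeq windows (GRCm38.p6, from 250 bases before to 50 after each start) were found for 69 of the 78 members, and both strands were searched for GCGCATGCG (the core of the NRF1 motif), CCGGAAGT (an ETS motif of the kind bound by GABP) and AAGATGGCG (a YY1 motif). NRF1 letters stood in 7 of the 69 members (10.1%), against 3.81% of 10894 protein-coding genes tested here and 1.95% of all 27025 genes with a window. ETS letters stood in 12 (17.4%, against 8.36% and 4.31%) and YY1 letters in 8 (11.6%, against 3.29% and 1.64%). At least 1 of these motifs stood in 26 members, with a median log2 fold change of -0.27 between the groups, against -0.27 in the members without. The following windows, from 120 bases before to 30 after the start and read along the gene, belong to the 6 members of smallest p whose motif lies inside that stretch. They are shown as called members with a motif near the start, 5 of them lower and 1 (Mrpl52) higher, and capitals mark the motif. Members of smaller p without a motif in that stretch, such as Mrpl47 and Mrpl45, are not shown.
Mrpl9, chr3:94443216-94443365, plus strand, NRF1: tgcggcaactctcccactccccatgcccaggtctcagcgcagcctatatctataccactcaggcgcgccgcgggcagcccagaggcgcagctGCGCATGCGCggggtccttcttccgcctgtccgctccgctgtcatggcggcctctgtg
Mrpl3, chr9:105053148-105053297, plus strand, ETS: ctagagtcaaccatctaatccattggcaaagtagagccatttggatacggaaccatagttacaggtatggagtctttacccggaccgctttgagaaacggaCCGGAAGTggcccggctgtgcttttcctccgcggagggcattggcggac
Mrpl22, chr11:58171544-58171693, plus strand, NRF1: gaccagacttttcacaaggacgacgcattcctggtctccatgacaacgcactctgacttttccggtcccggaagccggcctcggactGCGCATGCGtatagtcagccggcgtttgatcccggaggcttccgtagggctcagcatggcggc
Mrps27, chr13:99344666-99344815, plus strand, ETS and YY1: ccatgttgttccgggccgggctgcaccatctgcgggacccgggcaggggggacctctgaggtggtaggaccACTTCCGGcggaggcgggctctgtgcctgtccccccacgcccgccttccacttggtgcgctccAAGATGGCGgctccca
Mrpl48, chr7:100583101-100583250, minus strand, ETS: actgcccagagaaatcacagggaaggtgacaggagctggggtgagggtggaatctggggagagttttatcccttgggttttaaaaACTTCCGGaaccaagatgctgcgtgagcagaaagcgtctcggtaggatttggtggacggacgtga
Mrpl52, chr14:54426789-54426938, plus strand, ETS: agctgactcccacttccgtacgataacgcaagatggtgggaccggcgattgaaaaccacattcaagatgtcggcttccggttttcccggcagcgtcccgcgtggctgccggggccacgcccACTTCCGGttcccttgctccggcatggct
The Mrpl9 site starts 28 bases and the Mrpl22 site 33 bases before the start. The Mrpl48 window belongs to a RefSeq start inside the counted gene model (chr7, 100545751 to 100608301), not at the outer end of that model. The ETS letters of Mrpl52 begin at base 2 of the transcript, so a motif was present in the member that was higher as well as in members that were lower.

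A minority of the genes of each subunit passed the test, nearly all of them lower in the libraries labelled knockout. Of the 48 large subunit genes tested, 13 fell and 1 (Mrpl52) rose. Of the 29 small subunit genes tested, 6 fell and none rose. Among all 15984 genes tested, 11% were called lower and 12.0% higher (edgeR quasi-likelihood test, Benjamini-Hochberg adjusted p under 0.05), against 27.1% of the large and 20.7% of the small subunit genes called lower. The log2 fold change was negative in 46 of the 48 and in 28 of the 29, including those that did not pass the test. Its median was -0.27 in the large and -0.28 in the small subunit, beside -0.02 over all genes tested. DESeq2 called the same 19 members lower, where 10.7% of the 18931 genes with an adjusted p were, and did not call Mrpl52 (adjusted p = 0.0566). These calls depended on a few libraries and on the scale. Without Control replicate 8, 5 large and 2 small subunit genes were called lower (6.08% of all genes tested), and without both Control replicates 6 and 8, or with a muscle or osteoclast marker score as a covariate, none was. The mean TPM was lower in 51 of the 77 members. The remaining member, Mrpl53, a protein of the stalk base, had 0 counts in all 20 libraries. In the annotation it overlaps Gm42688, a gene model on the same strand, and whether that accounts for the 0 counts was not tested.

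**Figure D1:**
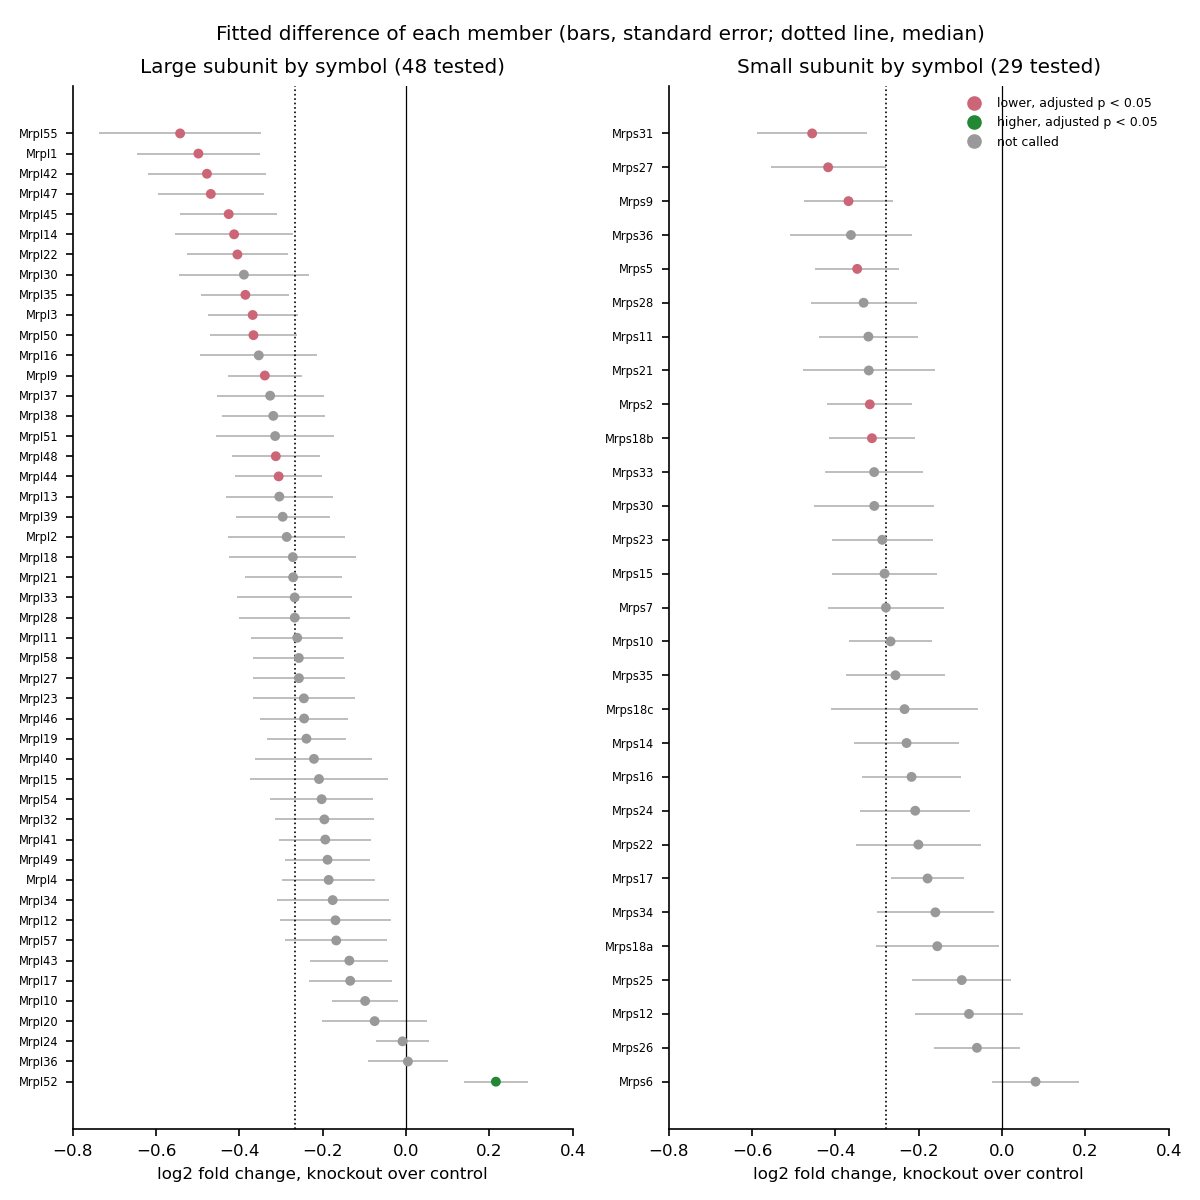
Log2 fold change (libraries labelled knockout over Control) with its standard error for each of the 48 large (left) and 29 small (right) subunit genes tested, ordered by size. Red points were lower and the green point (Mrpl52) higher at an adjusted p under 0.05, and the dotted lines are the medians, -0.27 and -0.28.

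No member separated the groups fully, and only 48 of all 15984 genes tested did. All 12 libraries labelled knockout lay below the Control median for 12 of the 77 members tested, and at least 7 of the 12 did for 70. These last counts have no share over all genes beside them. Over the 19 members that fell, the log2 fold change ran from -0.54 to -0.31 and the adjusted p from 0.0106 to 0.0477. The 57 members that were not called ran from -0.39 to 0.08. When single libraries were left out in turn, 5 members (Mrpl9, Mrpl35, Mrpl45, Mrpl47 and Mrps31) were called lower in all 20 fits. The share of all genes that did so was not counted. None of these 5 was called without both Control replicates 6 and 8. A further 8 lost the call in 1 to 3 fits, each of them without Control replicate 4, 6 or 8. The calls of Mrps18b, Mrps27 and Mrpl44 were lost in 10 fits each, those of Mrpl48 and Mrpl14 in 11 and that of Mrpl55 in 14.

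Among the large subunit genes, Mrpl9 had the smallest p. It encodes the counterpart of bacterial ribosomal protein L9. Its Control libraries had 47.1, 55.2 and 72.4 CPM at the lowest, median and highest, and the libraries labelled knockout had 34.98, 45.3 and 56.0 CPM. The groups overlapped, with 4 Control libraries above every library labelled knockout and 8 libraries labelled knockout below every Control library. Mrpl9 fell by 0.34 on the log2 scale (SE 0.0892, edgeR adjusted p = 0.0106).

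Mrpl47 encodes a protein of the rim of the polypeptide exit tunnel, where the new chain leaves the ribosome. It had 21.5, 29.1 and 34.7 CPM in the Control libraries and 14.3, 19.8 and 27.96 CPM in those labelled knockout. The 12 libraries labelled knockout all lay below the Control median, and the fitted log2 fold change was -0.47 ± 0.13 (SE, by edgeR at an adjusted p of 0.0122). The Mrpl47 gene model overlaps Ndufb5 and Actl6a on the other strand, and use of strand in the counting is not given in the sources used here.

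Mrpl45 encodes the exit tunnel protein that docks the ribosome on the inner membrane. It had 49.9, 63.4 and 84.8 CPM in the Control libraries and 34.0, 46.8 and 68.9 CPM in those labelled knockout. Its highest knockout value, in replicate 5, stood above the Control median, and the other 11 stood below it. On the log2 scale its difference was -0.43 ± 0.12 (SE, by edgeR at an adjusted p of 0.0128).

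The exit tunnel list held 5 genes, of which 3 fell (11% of all genes tested did): Mrpl45, Mrpl47 and Mrpl22. Mrpl22 lines the tunnel and had a log2 fold change of -0.40 ± 0.12 (SE, by edgeR at an adjusted p of 0.0207). Mrpl23 did not pass (-0.25, adjusted p = 0.150). Mrpl24, named after its values were seen, was nearly level, with 36.3, 40.2 and 42.7 CPM in the Control libraries and 35.2, 40.5 and 44.6 CPM in those labelled knockout. It had the smallest SD of log2 CPM of any member in both groups, 0.0792 and 0.128, against a median over members of 0.263 and 0.275.

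Mrpl35, a large subunit protein kept from bacteria, had 31.7, 39.2 and 49.5 CPM in the Control libraries and 21.1, 30 and 39.6 CPM in those labelled knockout. Of the 12 libraries labelled knockout, 11 lay below the Control median and 8 below every Control library, and its log2 fold change was -0.39 ± 0.11 (SE, by edgeR at an adjusted p of 0.0134).

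The largest fitted differences belonged to Mrpl55 and Mrpl1. Mrpl55, at the central protuberance on top of the large subunit, had 35.03, 43.5 and 65.9 CPM in the Control libraries and 17.6, 28.6 and 53.7 CPM in those labelled knockout. Its log2 fold change was -0.54 ± 0.19 (SE, by edgeR at an adjusted p of 0.0477), and 14 of the 20 fits that left out a single library lost the call. Mrpl1, the protein of the mobile stalk at the tRNA exit side, had 25.7, 37.4 and 43.2 CPM against 17.3, 22.1 and 37.0 CPM. All 12 libraries labelled knockout were below its Control median, and it fell by 0.50 on the log2 scale (SE 0.148, edgeR adjusted p = 0.0199).

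Mrpl52, also of the central protuberance, was the only member called higher. It had 26.2, 28.9 and 34.4 CPM in the Control libraries and 29.3, 34.1 and 40.6 CPM in those labelled knockout. All 12 libraries labelled knockout stood above the Control median, and the groups overlapped, since the highest Control value lay inside their range. The log2 fold change was 0.22 ± 0.08 (SE, by edgeR at an adjusted p of 0.0478), and 13 of the 20 fits without a single library lost the call. Its neighbour Mmp14, a membrane metalloproteinase gene that starts 1856 bases beyond the end of Mrpl52 on the same strand, rose from 125 ± 58.2 to 429 ± 142 CPM (mean ± SD, 8 and 12 libraries, edgeR adjusted p = 0.00115). The part of that neighbour in the Mrpl52 value was not tested.

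**Figure D2:**
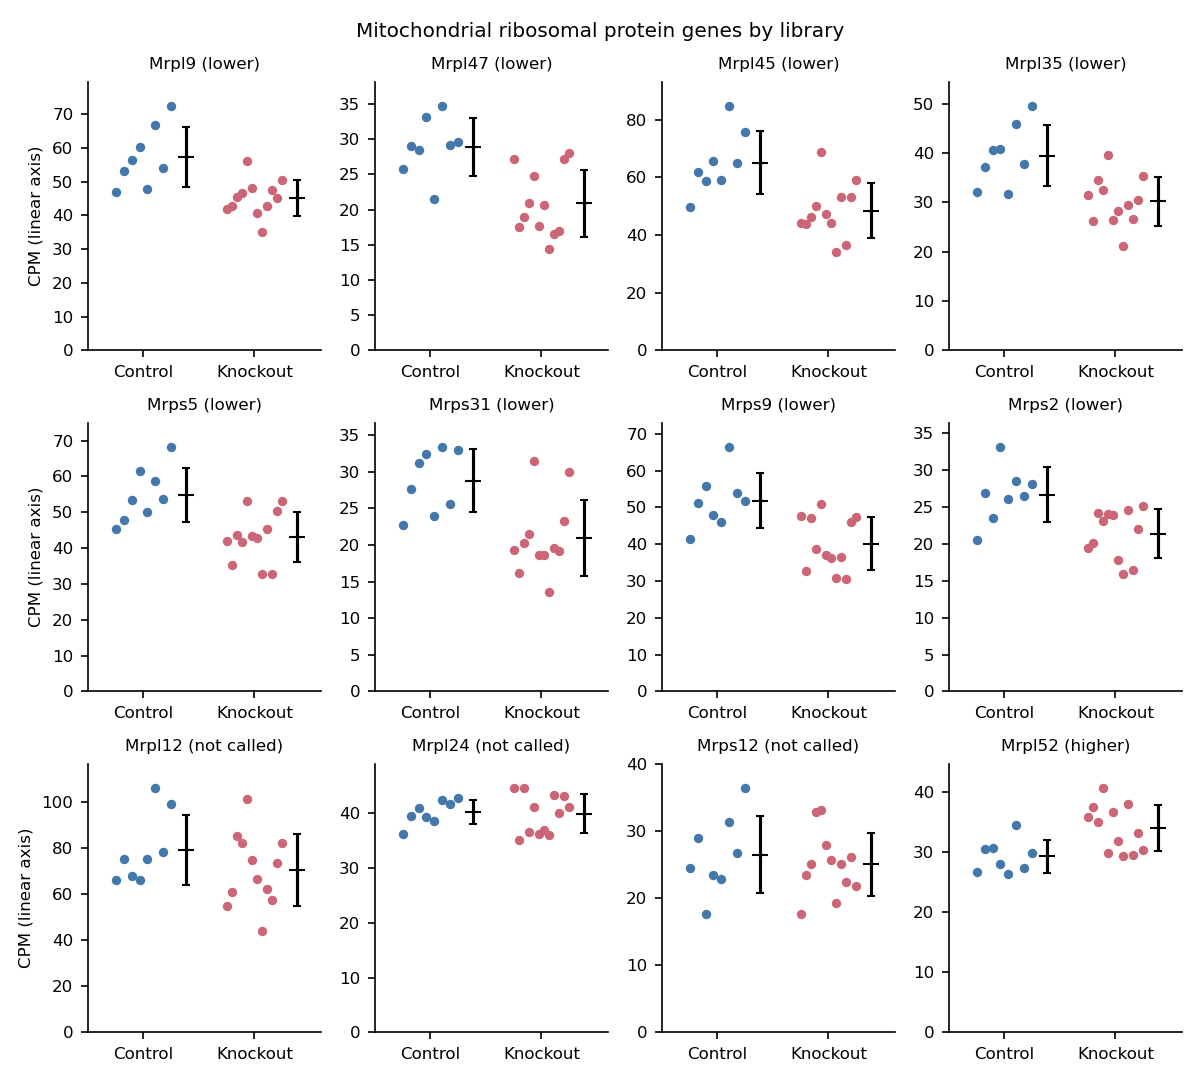
CPM on linear axes from 0 for 12 members, with a point for each of the 8 Control (blue) and 12 knockout-labelled (red) libraries and the mean with SD in black. The 8 genes of the upper rows were lower, with overlapping groups, while Mrpl12, Mrpl24 and Mrps12 were not called and Mrpl52 was higher.

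The stalk that recruits translation factors did not pass the test in any of its 4 genes tested, beside 11% lower and 12.0% higher of all genes tested. All 4 log2 fold changes were negative (median -0.19). Mrpl12, whose copies form the stalk, had 66.0, 75.3 and 106 CPM in the Control libraries and 44.0, 70.2 and 101 CPM in those labelled knockout, with broad overlap. Its log2 fold change was -0.17 (adjusted p = 0.374). Mrpl10, which anchors Mrpl12, stood at -0.10 (adjusted p = 0.392) and Mrpl11, at the stalk base, at -0.26 (adjusted p = 0.0891).

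The central protuberance list held 10 genes, of which 2 (Mrpl48 and Mrpl55) fell and 1 (Mrpl52) rose, beside 11% and 12.0% of all genes tested. Mrpl58, a peptidyl-tRNA hydrolase built into the protuberance that can free stalled chains, was not called (-0.26, adjusted p = 0.0915). Mrpl44, which has the fold of an RNase III enzyme, had a log2 fold change of -0.31 ± 0.10 (SE, by edgeR at an adjusted p of 0.0380). It overlaps Wdfy1 on the other strand.

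Among the small subunit genes, Mrps5 had the smallest p. Its product lies near the mRNA entry, as its bacterial counterpart does. Mrps5 had 45.2, 53.6 and 68.2 CPM in the Control libraries and 32.9, 43.1 and 53.2 CPM in those labelled knockout. All 12 libraries labelled knockout lay below the Control median, and 5 Control libraries lay above all of them. The log2 fold change was -0.35 ± 0.10 (SE, by edgeR at an adjusted p of 0.0177).

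Mrps31, a protein with no bacterial counterpart, had the largest difference of the small subunit. It had 22.7, 29.5 and 33.4 CPM in the Control libraries and 13.5, 19.5 and 31.5 CPM in those labelled knockout. The groups overlapped at the top, where 3 libraries labelled knockout reached the Control range, and the other 9 stayed below every Control library. Mrps31 fell by 0.46 on the log2 scale (SE 0.132, edgeR adjusted p = 0.0179).

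Mrps9, the counterpart of bacterial S9, had 41.5, 51.5 and 66.4 CPM in the Control libraries and 30.6, 37.8 and 50.8 CPM in those labelled knockout. All 12 of the latter were below the Control median, and its log2 fold change was -0.37 ± 0.11 (SE, by edgeR at an adjusted p of 0.0186). Mrps2, the counterpart of bacterial S2, had 20.5, 26.7 and 33.1 CPM against 15.95, 22.5 and 25.1 CPM. Again all 12 were below the Control median, and Mrps2 fell by 0.32 on the log2 scale (SE 0.102, edgeR adjusted p = 0.0293). Mrps27, a pentatricopeptide repeat protein that touches RNA, fell by 0.42 on the log2 scale (SE 0.138, edgeR adjusted p = 0.0334).

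Mrps12, the counterpart of the bacterial decoding centre protein S12, was not called. It had 17.7, 25.6 and 36.4 CPM in the Control libraries and 17.6, 25.1 and 33.1 CPM in those labelled knockout, with nearly the same range in both groups. The log2 fold change was -0.08 ± 0.13 (SE, by edgeR at an adjusted p of 0.691). Mrps6 had the highest fitted value of the small subunit, 0.08 (adjusted p = 0.610). Its gene model overlaps Slc5a3 on the same strand.

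The family of bacterial S18 has 3 mitochondrial members, which occupy different places. Mrps18c sits where S18 does in the small subunit, Mrps18b elsewhere in the small subunit, and Mrps18a in the large subunit. Mrps18b fell by 0.31 on the log2 scale (SE 0.102, edgeR adjusted p = 0.0321), from 15.9, 19.1 and 23.6 CPM to 12.8, 15.1 and 19.7 CPM. Mrps18a (-0.16, adjusted p = 0.467) and Mrps18c (-0.23, adjusted p = 0.353) were not called. The differences among these 3 fold changes were not tested.

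Symbols do not always follow the structure. Mrps30 and Mrps18a belong to the large subunit, and Mrps36 is a component of the 2-oxoglutarate dehydrogenase complex rather than of the ribosome. Mrps30 (-0.31, adjusted p = 0.125) and Mrps36 (-0.36, adjusted p = 0.0763) were not called. Regrouped by place in the structure, 13 of 50 large subunit genes tested and 6 of 26 small subunit genes fell, with medians of -0.27 and -0.27. Large subunit proteins with a bacterial counterpart and those without had 8 of 30 and 5 of 20 genes lower (medians -0.27 and -0.28). In the small subunit these counts were 3 of 16 and 3 of 10 (medians -0.27 and -0.27). All counts of this regrouping stand beside the 11% of all genes tested that were called lower.

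Levels were compared between members per exonic length in the Control libraries, as TPM (counts divided by exonic length and scaled to a common sum). Mrps21 (178 ± 21.1 TPM, mean ± SD, n = 8) and Mrpl34 (155 ± 25.6 TPM) had the highest mean of the small and large subunit. Mrpl19 (6.33 ± 1.099 TPM) and Mrps35 (6.92 ± 0.843 TPM) had the lowest, so the tested members spanned 28.1-fold. The Mrps21 and Mrpl34 levels differed by less than their summed SDs, as did those of Mrps35 and Mrpl19. Exonic length here joins all annotated exons of a gene, so a gene with long rare exons is given a low TPM. Across the 77 members the log2 fold change had a Pearson correlation of -0.06 with log2 TPM, -0.14 with log2 exonic length and 0.21 with GC percent. These are descriptions over genes measured in the same libraries.

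The large and small subunits moved together from library to library. Each library was described by the median, over members, of log2 CPM minus the Control mean of the gene. In the Control libraries this median ran from -0.29 (replicate 1) to 0.31 (replicate 6) for the large subunit and from -0.30 (replicate 1) to 0.33 (replicate 8) for the small. In the libraries labelled knockout it ran from -0.74 (replicate 8) to 0.07 (replicate 5) and from -0.73 (replicate 8) to 0.09 (replicate 5). The groups overlapped. Within a library the difference between subunits stayed from -0.05 to 0.05 in the Control libraries and from -0.09 to 0.08 in those labelled knockout. The summed TPM of large over small subunit genes was 2.07 ± 0.0602 (SD, n = 8) and 2.09 ± 0.0681 (SD, n = 12), which differed by less than 1 SD.

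Single libraries were high or low in nearly all members at once. In Control replicates 6 and 8, 73 of the 77 members were above their Control mean, against 2 of 77 in Control replicate 1 and 5 of 77 in Control replicate 5. In knockout replicates 7 and 10, 1 of 77 was above the Control mean, and in knockout replicate 5, 54 were. Without Control replicates 6 and 8, an alternative chosen after seeing the data, edgeR called no member lower, where 4.15% of all genes tested were. In that fit 12 of 48 large and 6 of 29 small subunit genes had an unadjusted p under 0.05, as did 4570 of all 16551 genes tested. The medians were -0.17 and -0.18. No other pair of Control libraries was left out, so the loss of calls with fewer Control libraries and the part of these 2 cannot be told apart.

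**Figure D3:**
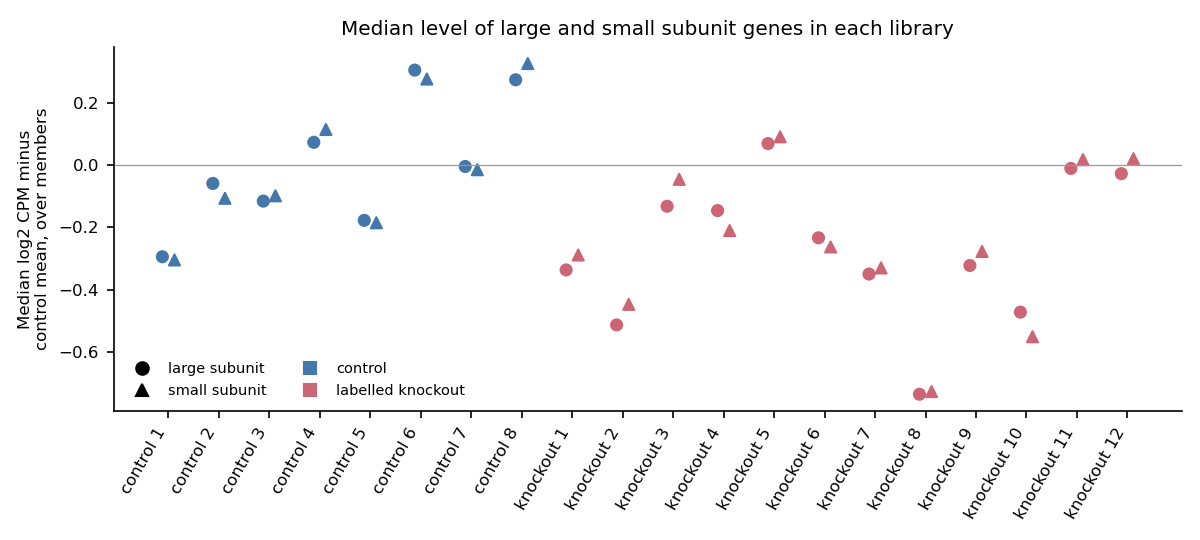
Median over large (circles) and small (triangles) subunit genes of log2 CPM minus the Control mean, for each library. The 2 subunits lie close together in every library, Control replicates 6 and 8 are highest at 0.27 to 0.33, and knockout replicate 8 is lowest at about -0.73.

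The size of the difference depended on the scale. The members' summed CPM was 3617 ± 572 (SD, n = 8) in the Control libraries and 2987 ± 491 (SD, n = 12) in those labelled knockout. As a share of all counts they made up 0.336% ± 0.0228 and 0.308% ± 0.0306. On the TPM scale, with no TMM factor, the large subunit summed to 2210 ± 276 and 2145 ± 327 and the small to 1065 ± 119 and 1025 ± 153, differences within 1 SD. The common sum of the TPM includes the mitochondrial genome, which held 17.8% and 13.6% of counts. The part of that share in the TPM values was not tested. The mean CPM was lower in the libraries labelled knockout for 74 of the 77 members, against the 51 on the TPM scale. Scaled by library totals alone, the median of all genes tested moved to 0.12 and those of the large and small subunit genes to -0.12 each.

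Some marker lists of other tissue also differed between the groups, in either direction. In bulk tissue, fewer cells of a type and less RNA per cell cannot be told apart. Of 12 skeletal muscle markers, 5 fell (median log2 fold change -0.63), among them Pvalb (-1.61, adjusted p = 0.00565), a calcium buffer of fast fibres, and Atp2a1 (-0.83, adjusted p = 0.0334), the calcium pump of fast fibres. Their summed level was 54770 to 194300 CPM in the Control libraries and 38290 to 99440 CPM in those labelled knockout, and none was at 0. All 9 osteoclast markers rose (median 2.72), among them Ctsk (2.68, adjusted p = 0.00140), the collagen-cutting protease of osteoclasts, and Ocstamp (2.88, adjusted p = 0.00154), which acts in their fusion. Their summed level was 179 to 1436 CPM and 634 to 7879 CPM. All 6 macrophage markers also rose, Cd68 by 2.20 and Csf1r by 1.996 on the log2 scale (36.4 to 206 CPM against 124 to 520 CPM), as did 4 of 9 osteoblast and osteocyte markers, Bglap and Dmp1 among them (178 to 1848 CPM against 301 to 3896 CPM). None of the 6 chondrocyte markers tested was called (101 to 3123 CPM against 1566 to 4825 CPM), with Col2a1 at 0.99 (adjusted p = 0.299) and Sox9 at 0.33 (adjusted p = 0.435). Of the neutrophil markers 1 of 7 rose. None of the adipocyte, erythroid, B cell, endothelial and Schwann cell markers tested was called.

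With the mean log2 CPM of the muscle markers as a covariate, edgeR called no member, where 1.40% of all genes tested were called lower. An unadjusted p under 0.05 was found for 5 of 48 large and 1 of 29 small subunit genes, against 3445 of all 15984 genes tested. The medians were then -0.07 and -0.09. With the osteoclast markers as a covariate, edgeR called no gene at all (0.00% lower), and the medians turned to 0.08 and 0.11. No member had an unadjusted p under 0.05 in that fit, against 1296 of all 15984 genes tested. Both marker lists themselves differ between the groups, so in these fits the covariate takes part of the group difference with it. The members' difference and the tissue makeup cannot be told apart here.

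**Figure D4:**
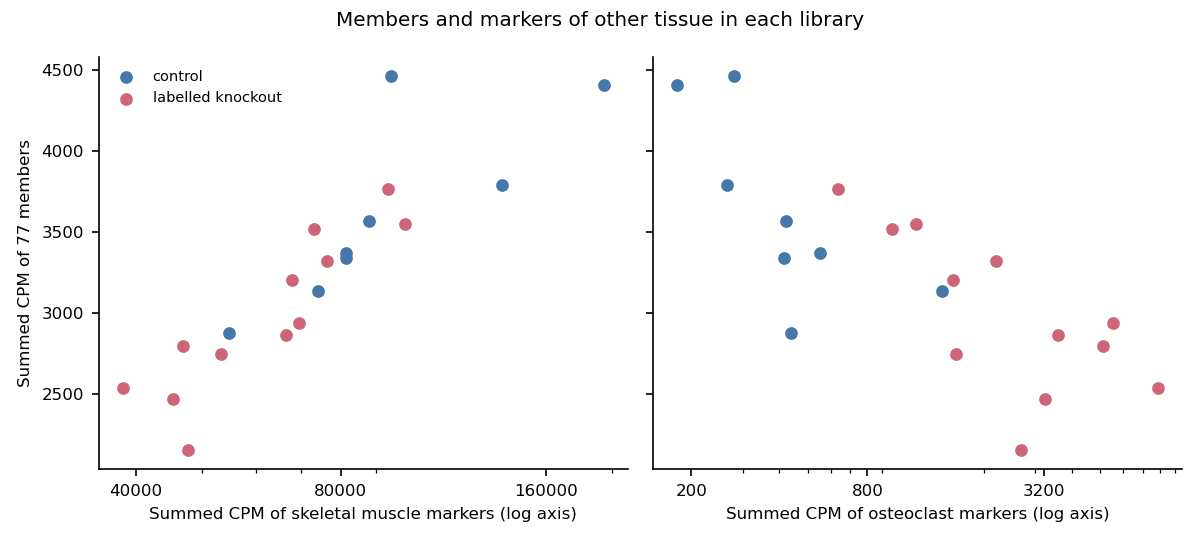
Summed CPM of the 77 members tested (linear axis) against summed CPM of 12 skeletal muscle markers (left) and 9 osteoclast markers (right), both on log axes, for each Control (blue) and knockout-labelled (red) library. Libraries with more muscle marker RNA have more member RNA in both groups, and the groups differ in both marker sums.

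The genes that build and serve the mitochondrial ribosome also had negative medians. Their counts stand beside the 11% of all genes tested that were called lower. Of the 5 subunits whose symbol is not Mrp, 2 fell (median -0.25): Ptcd3 (-0.41, adjusted p = 0.00985), which binds mitochondrial RNA, and Dap3 (-0.25, adjusted p = 0.0391), a GTP-binding small subunit protein, whose call was lost in 13 of the 20 fits without a single library. Of 25 genes of assembly and rRNA modification, 8 fell and none rose (median -0.25). Ngrn, which supports the large rRNA, went from 27.3 ± 4.15 to 20.0 ± 1.39 CPM (log2 fold change -0.45, edgeR adjusted p = 0.00135), and Mtg1, a GTPase of large subunit assembly, from 31.4 ± 6.32 to 21.6 ± 3.79 CPM (-0.54, adjusted p = 0.00399).

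Translation factors had 9 of 18 genes lower and none higher (median -0.36). Taco1, the activator of translation of cytochrome oxidase subunit I, went from 32.0 ± 6.24 to 20.2 ± 3.37 CPM (log2 fold change -0.66, edgeR adjusted p = 0.00130). Gfm1, the elongation factor that moves the ribosome along, went from 140.2 ± 16.7 to 96.3 ± 19.5 CPM (-0.54, adjusted p = 0.00258). In both, all 12 libraries labelled knockout lay below the Control median.

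Of 17 mitochondrial aminoacyl-tRNA synthetases, 3 fell (17.6%, median -0.21), with Tars2 (-0.29, adjusted p = 0.0276) and Yars2 (-0.31, adjusted p = 0.0365) of smallest p, which charge threonine and tyrosine tRNAs. The call of Yars2 was lost in 10 of the 20 fits. Of 17 genes of mitochondrial DNA replication, transcription and RNA processing, 7 fell (median -0.25). These included the transcription factors Tfb2m (-0.49, adjusted p = 0.00318) and Tfam (-0.43, adjusted p = 0.00403), and in both all 12 libraries labelled knockout lay below the Control median.

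Among the 13 mRNAs of the mitochondrial genome, the templates of this ribosome, 3 fell (median -0.59), with mt-Nd2 (-0.66, adjusted p = 0.0241) and mt-Nd1 (-0.59, adjusted p = 0.0418), both complex I subunits, of smallest p. The call of mt-Nd1 was lost in 12 of the 20 fits. DESeq2 called 9 of the 13 lower. The rRNAs mt-Rnr1 (-0.43, adjusted p = 0.533) and mt-Rnr2 (-0.48, adjusted p = 0.392) were not called. Mitochondrial genome reads made up 17.8% ± 2.78 of counts in the Control libraries and 13.6% ± 3.03 in those labelled knockout (SD, n = 8 and 12, exact two-sided permutation p = 0.0053). Of 9 nuclear regulators, 2 fell and 1 rose (median -0.02). Myc went from 6.87 ± 1.96 to 13.9 ± 4.43 CPM (log2 fold change 1.01, edgeR adjusted p = 0.00217), whereas Ppargc1a, a coactivator of mitochondrial biogenesis abundant in muscle, went from 43.4 ± 17.0 to 27.5 ± 9.41 CPM (-0.66, adjusted p = 0.0327, lost in 8 of the 20 fits).

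Cytosolic ribosomal protein genes had a positive median. Of 79 tested, 1 fell, 4 rose and 74 were not called (median 0.11, 15 negative). Among all genes tested, 11% were called lower and 12.0% higher. The gene that fell was Rpl3l (-0.54, adjusted p = 0.0383), the form of Rpl3 found in striated muscle, and Rpl3 itself rose (0.81, adjusted p = 0.00597). Of 81 nuclear genes of the respiratory complexes tested, 16 fell and 1 rose (median -0.38, 77 negative), beside the same shares of all genes. The differences between these groups and the mitochondrial ribosomal genes were not tested.

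**Figure D5:**
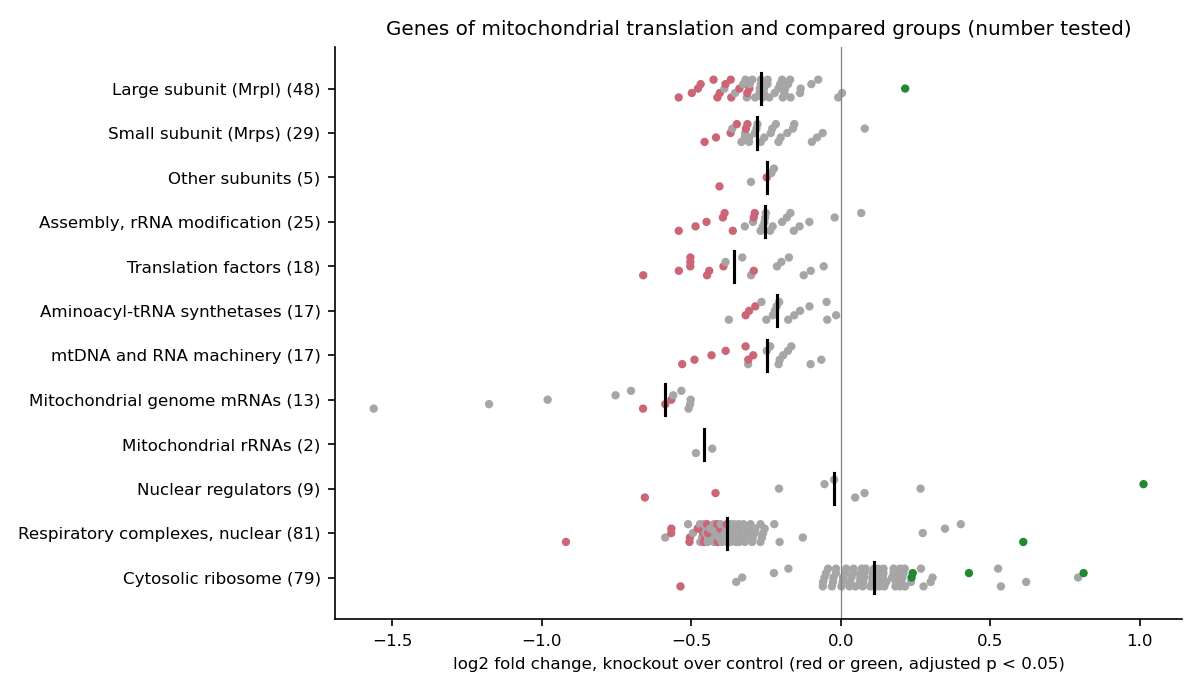
Log2 fold change (libraries labelled knockout over Control) of each gene tested in the mitochondrial ribosome, the lists of mitochondrial translation and the 2 compared groups, with black bars at the medians. Red (lower) and green (higher) points passed an adjusted p under 0.05, and the medians lie at -0.27 and -0.28 for the ribosomal subunits and at 0.11 for the cytosolic ribosome.

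Many members lie close to another gene. In 18 of the 78 (23.1%), a protein-coding gene starts in the opposite direction within 1000 bases upstream, against 6.76% of 22028 protein-coding genes. None of the 17 partners tested was called, beside 11% lower and 12.0% higher of all genes tested. Their median log2 fold change was -0.18, beside -0.23 for the 17 members they are paired with. Mrps5, which fell, starts 128 bases from Zfp661 (-0.30, adjusted p = 0.206), and Mrps18b, which fell, 45 bases from Ppp1r10 (0.15, adjusted p = 0.450). Mrps12 starts 172 bases from Sars2, the mitochondrial seryl-tRNA synthetase (-0.18, adjusted p = 0.272). Mrpl46 and Mrps11, a large and a small subunit gene, lie head to head on chromosome 7 (GRCm38, 78775236 to 78783531 and 78783119 to 78792989) with overlapping gene models, and neither was called (-0.24, adjusted p = 0.0994, and -0.32, adjusted p = 0.0564). The models of 26 members overlap another protein-coding gene, among them 5 of the 19 that fell (Mrpl9, Mrpl14, Mrpl44, Mrpl47 and Mrpl48). The counts of these 26 are uncertain to an extent that differs by member. For the 5, the overlapping genes had from 60 counts over all libraries (Oaz3, where Mrpl9 had 18520) to 97514 (Ndufb5, where Mrpl47 had 8908).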

How the data were processed

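The authors deposited raw read counts per Ensembl gene. The submitters' processing notes name the mm10 build and featureCounts. The aligner, the annotation release and the use of strand are not given in the sources used here. Symbols and coordinates were taken from GENCODE M21 (GRCm38), which matched 54495 of 54532 genes. Members and gene lists were chosen with earlier results of these data known. Mtrfr was not matched, and Prorp was matched through an older name. Of 92 protein-coding genes whose symbol matched the pattern for cytosolic ribosomal proteins, 11 (S6 kinases and Rps19bp1) are not ribosomal proteins and were left out.

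Genes passing filterByExpr were fitted with the edgeR (4.0.16) quasi-likelihood test after TMM scaling in R 4.3.3, with 8 Control and 12 LOXL2_KO libraries and Benjamini-Hochberg adjustment over all 15984 genes tested. DESeq2 1.42.0 was an alternative. CPM used TMM factors, log2 CPM a prior count of 2, and TPM the joined exon length. The procedure was tested on simulated data. No library pair was a duplicate (smallest chi-square per degree of freedom 32.9 over 190 pairs). Depth was 11153820 to 27045668 counts per library, and tested members had 107 to 3585 counts in a library.

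Members named were those of smallest p, of most extreme fold change, of highest and lowest TPM, and those with a stated role in the ribosome. Mrpl3, Mrpl14, Mrpl22, Mrpl24, Mrpl42, Mrpl46, Mrpl48, Mrpl50 and Mrps11 were named after their values were seen.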

Additional observations from a re-analysis of the deposited data

How the results depend on the processing

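The counts of members called lower (13 large and 6 small subunit genes) depended on the libraries and on tissue scores. The medians, -0.27 and -0.28, also depended on tissue scores, and the muscle score moved them to -0.07 and -0.09. The share of all genes called lower, 11% with all libraries and TMM scaling, moved with the counts. Scaling by library totals alone gave 6 and 2 (5.31% of all genes). Removing a gene length trend gave 20 large subunit genes (12.5%), and dropping the filter gave 3 small subunit genes (3.87%). A chondrocyte marker score as covariate, added after the data were seen, gave 8 and 3 (7.04%). The muscle score, the osteoclast score and the loss of both Control replicates 6 and 8 (the last added after the data were seen) each gave 0 and 0 (1.40%, 0.00% and 4.15%). The osteoclast score turned the medians to 0.077 and 0.107, and turned Mrpl1 (0.0612), Mrpl11 (0.0989), Mrpl12 (0.18), Mrpl22 (0.0429), Mrpl23 (0.164), Mrpl24 (0.0619), Mrpl34 (0.14), Mrpl42 (0.0496), Mrpl44 (0.0543), Mrpl48 (0.0618), Mrpl58 (0.0497), Mrps12 (0.216), Mrps18a (0.247), Mrps18c (0.156), Mrps21 (0.233), Mrps30 (0.198), Mrps31 (0.0283), Mrps35 (0.091) and Mrps36 (0.107). The muscle score turned Mrpl12 (0.0327), Mrpl34 (0.0333), Mrps12 (0.097), Mrps18a (0.0844) and Mrpl24 (0.0392). Library totals turned Mrpl10 (0.0531), Mrps12 (0.0789), Mrps18a (0.0032) and Mrpl24 (0.135). The chondrocyte score turned Mrps12 (0.0219) and Mrpl24 (0.006), the loss of Control replicates 6 and 8 turned Mrps12 (0.0523) and Mrpl24 (0.0122), and no filter turned Mrpl24 (0.0044). The cause was not tested.

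Leaving out 1 library at a time gave 5 (without Control replicate 8) to 20 large and 2 (without Control replicate 8) to 10 small subunit genes, where 6.08% (without Control replicate 8) to 12.8% (without knockout replicate 5) of all genes were called lower, with medians of -0.31 to -0.20 and -0.32 to -0.22. Mrps12 then ran from -0.146 to 0.0113 and Mrpl24 from -0.0287 to 0.0168. Mrpl9, Mrpl35, Mrpl45, Mrpl47 and Mrps31 were called in each of those 20 fits, a count with no share over all genes beside it. The other alternatives listed (DESeq2 test or size factors, upper-quartile factors, no mitochondrial genome, a mean of at least 1 CPM, protein-coding genes alone, robust dispersion, a GC trend, an Xist covariate added after the data were seen, grouping by structure) left both counts within 1.5 times.

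With the replicate number as a block in the 16 libraries that share numbers, 2 large and 0 small subunit genes were called lower by edgeR, where 4.41% of all genes were. The medians were -0.31 and -0.31. An unadjusted p under 0.05 was found for 25 large and 12 small subunit genes, against 4827 of all 15571 genes tested. The same 16 libraries without the block gave 11 and 7 called lower (9.54% of all genes). Same-numbered libraries correlated from -0.36 to 0.17 in their deviations from the group means. Libraries of different number were not compared in this way, and the labels do not say what the number stands for.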

Other observations

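The labels give no sex. Xist, expressed from the inactive X chromosome, was above 10 CPM in 5 of the 8 Control libraries and 6 of the 12 labelled knockout, and Ddx3y, a Y-linked gene, in 3 and 6, with no library above in both. The study's methods give as many males as females in each group, which the split among the Control libraries does not match. With the log2 level of Xist as a covariate, an alternative added after the data were seen, edgeR called 11 large and 7 small subunit genes lower (11.7% of all genes), and the medians were -0.26 and -0.29.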
